A study of Mus musculus with 72 samples.

Results

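Wnt4, Wnt5a, Rspo3, Sfrp1 and Bmp3 encode secreted ligands and modulators of the Wnt and BMP pathways, and their transcripts were followed across single Pet1 neurons of the mouse dorsal raphe (DR). Pet1, also called Fev, is the transcription factor gene that marks serotonergic neurons. All 5 genes are in both tables of the series, and they were chosen by name because their levels set clusters or sorted groups apart. The levels below are therefore a description of these cells, and no test was made on them.

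The 10X table holds UMI counts, which are counts of distinct captured transcripts, for 17231 genes in 2350 DR neurons. It pools neurons of 6 mice of genotype Pet1::Flpe+/-; hM3Dq+/+, mean age 65.5 days, with neurons of 4 mice that carried En1-cre with Pet1-Flpe and RC-FrePe, mean age 59 days. In the first genotype Flpe alone switches on the green label, and in the second the label also needs Cre driven by En1, a gene of the embryonic midbrain and rostral hindbrain. Barcodes end in 1 for 869 cells (set 1) and in 2 for 1481 cells (set 2), no barcode without its ending is shared, and which genotype a set stands for is not stated, so the table is 1 sample. The second table holds read counts for 24256 genes in 70 neurons picked by hand, in 8 groups that differ in the Cre driver and the microdissected DR region. All of them were heterozygous for the Cre, for Pet1::Flpe and for RC::FrePe, a reporter that turns green where Cre and Flpe were both active at any time in a cell's history. Sert::cre, driven from the serotonin transporter gene Slc6a4 on a bacterial artificial chromosome, labelled 10 dorsolateral (dlDR), 9 dorsomedial (dmDR) and 8 ventromedial (vmDR) cells at postnatal day 63 or 90, and 6 caudal (cDR) cells at day 63. P2ry1::cre, a knock-in, labelled 10 cDR cells at days 62 to 74, and Npy2r::cre, also a knock-in, labelled 10 cDR and 9 rostral (rDR) cells at day 77 or 87. Crh::cre, on a bacterial artificial chromosome, labelled 8 rDR cells at day 83 or 119. At least 2 mice stood behind each sorted group, but cells are not tied to animals, so cells of a group are not replicates of it and no p-value is given.

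Each 10X cell held 12320 to 134079 UMIs with a median of 59646, and each sorted cell 756872 to 7664103 reads on genes. Every 10X cell had a UMI of Fev, and every sorted cell had reads of Fev and Tph2, which encodes the enzyme that starts serotonin synthesis. Summed over 6 serotonin neuron genes, the level was 9060 CPM in all 10X cells and lowest in cluster 13, at 2539 CPM. The 10X cells were divided into 14 clusters, named here by number and leading markers, and a cluster's level is given in CPM, the summed UMIs of a gene divided by all UMIs of the cluster and scaled. The 5 genes were among the 2000 variable genes that made the clusters. Intervals are exact 95% intervals that cover counting error only.

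Wnt proteins are secreted, lipid-modified glycoproteins that bind Frizzled receptors. With the co-receptors Lrp5 and Lrp6 they stabilise beta-catenin, and with Ror and Ryk receptors they act without it, a route for which Wnt5a is best known. Wnt4 uses either route depending on the tissue. Rspo3, an R-spondin, binds Lgr receptors and the ubiquitin ligases Rnf43 and Znrf3, which keeps Frizzled at the cell surface and amplifies Wnt signals. Sfrp1 carries a Frizzled-like domain and binds Wnts outside the cell, mostly as an antagonist. Bmp3 is an atypical bone morphogenetic protein that limits the signalling of other family members through the receptor Acvr2b. In the embryo, Wnt signals at the boundary of midbrain and hindbrain pattern the region in which DR neurons are born.

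In the mm10 annotation, Wnt4 lies at chr4:137277489-137299726 on the plus strand and Wnt5a at chr14:28504750-28527448 on the plus strand. Rspo3 lies at chr10:29452416-29535867 on the minus strand, Sfrp1 at chr8:23411502-23449632 and Bmp3 at chr5:98854415-98884396, both on the plus strand. Wnt5a overlaps the antisense gene Gm2670 and Rspo3 overlaps Gm20276 and the antisense gene Gm48159. How the counting used strand is not given in the sources used here, so reads of these pairs may not be told apart.

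All 5 members were at least 2-fold higher in their leading cluster than in all other cells, a ratio met by 20.8% of the 12901 genes with at least 100 UMIs. Wnt4, Sfrp1 and Bmp3 were also at least 2-fold above the next cluster, as were 2.99% of those genes. Cluster by cluster, 2.08% of the genes were 2-fold above all other cells in cluster 8, 2.08% in cluster 9, 1.22% in cluster 11 and 8.33% in cluster 13. Since the clusters chose the members, nothing is read from these counts. Ordered by the ratio to all other cells, Bmp3 stood at place 8 of the 12901 genes, Sfrp1 at 20, Wnt4 at 165, Rspo3 at 279 and Wnt5a at 636. Wnt5a and Rspo3 were graded over many clusters, with at least 10 CPM in 12 and 9 of them. Wnt4 reached 10 CPM in 4 clusters and stood 3.67-fold above the next in its leading cluster. Sfrp1 and Bmp3 were sparse transcripts held mostly by 1 cluster each.

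Wnt4 was highest in cluster 8, marked by Rorb and Nr2f2, at 85.6 CPM (78.0 to 93.7). The remaining cells stood at 8.49 CPM, which makes a log2 ratio of 3.33 (3.17 to 3.49). Cluster 8 held 3.66% of the cells and 29.7% of the 1571 Wnt4 UMIs. A UMI of Wnt4 was found in 70 of its 86 cells, with a median of 5 UMIs per cell and a maximum of 24. Next came cluster 7 (Tmeff2, Adcy2 and Nrp2) at 23.3 CPM and cluster 10 (Hs3st5, Hcrtr2 and Cbln2) at 19.1 CPM, whose intervals overlapped. In cluster 7, 5 microglial genes summed to 19.0 CPM, against 1.88 CPM in all cells, and their part in its levels was not tested. These 3 clusters together held 61.4% of the Wnt4 UMIs. The lowest level, 1.81 CPM, was in cluster 12 (Met and Zeb2), where 9 of 109 cells had a UMI. In set 1 cluster 8 stood at 101 CPM and in set 2 at 75.8 CPM, above every other cluster in both.

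Cluster 8 was not a stable unit. In 3 of 4 other clusterings all 86 of its cells fell into 1 cluster with cells of cluster 10, for example 256 cells of which 167 came from cluster 10 when the pathway genes were left out. Wnt4 was still highest in that merged cluster, but its log2 ratio to the next cluster fell from 1.88 to 0.76.

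Wnt5a was the member detected in most cells, with a UMI in 1421 of the 2350, of which 340 had only 1 UMI, as had 359 of the 664 cells with Wnt4. The table holds no cell type that should lack these genes, so a background share from free RNA is not known, and shares of cells are shares with a UMI. The lowest share in a cluster was 17.9% for Wnt5a (cluster 4, median depth 59697 UMIs), against 98.0% in cluster 9 (61866 UMIs). The level of Wnt5a was at least 10 CPM in 12 of the 14 clusters. It was highest in cluster 9 (Maf, Nos1 and Crh), at 172.7 CPM (164.2 to 181.5). Cluster 5 (Pdyn, Ret and Col25a1) followed at 104.2 CPM and cluster 6 (Pou3f2, Bcl11a and Gad1) at 84.3 CPM, with no overlap of intervals between these 3. Cluster 9 was above the remaining cells by a log2 ratio of 2.05 (1.97 to 2.13) and above cluster 5 by 0.73 (0.62 to 0.84). Clusters 11, 10 and 7 lay between 61.6 and 68.4 CPM and did not differ beyond their intervals. At the other end, cluster 4 (Sox14, Vim and Prkcq) stood at 3.68 CPM, 46.9-fold below cluster 9, and clusters 2 (Crym and Trh) and 3 (Kit, Hcrtr1 and Phlda1) at 9.16 and 10.2 CPM. Of 148 cells in cluster 9 only 3 had no Wnt5a UMI, and the median cell had 10. The sets agreed closely there, at 170.7 and 173.6 CPM.

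Rspo3 was highest in cluster 11 (Foxa1, Adgrl2 and Syt2), at 198.6 CPM (189.1 to 208.4), with a UMI in 124 of 129 cells and a median of 13 UMIs per cell. Clusters 9 and 5 followed at 124.7 and 75.1 CPM, each apart from its neighbours. The log2 ratio of cluster 11 was 2.81 (2.73 to 2.90) over the remaining cells and 0.67 (0.56 to 0.78) over cluster 9. Clusters 7, 6, 13, 14, 10 and 1 formed a slope from 50.7 to 19.9 CPM in which intervals of neighbours overlapped. In the last 5 clusters, 12, 3, 4, 2 and 8, the level was 2.62 CPM or lower. Cluster 8, which led for Wnt4, had 2 Rspo3 UMIs in 1 of its 86 cells, a log2 ratio of cluster 11 to cluster 8 of 9.08 (7.22 to 12.13). The median depths of these clusters were alike, at 64986 and 65592.5 UMIs per cell. The level in cluster 9 differed between sets, at 83.7 CPM in set 1 and 142.8 CPM in set 2, while cluster 11 stood at 194.9 and 199.5 CPM.

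**Figure D1:**
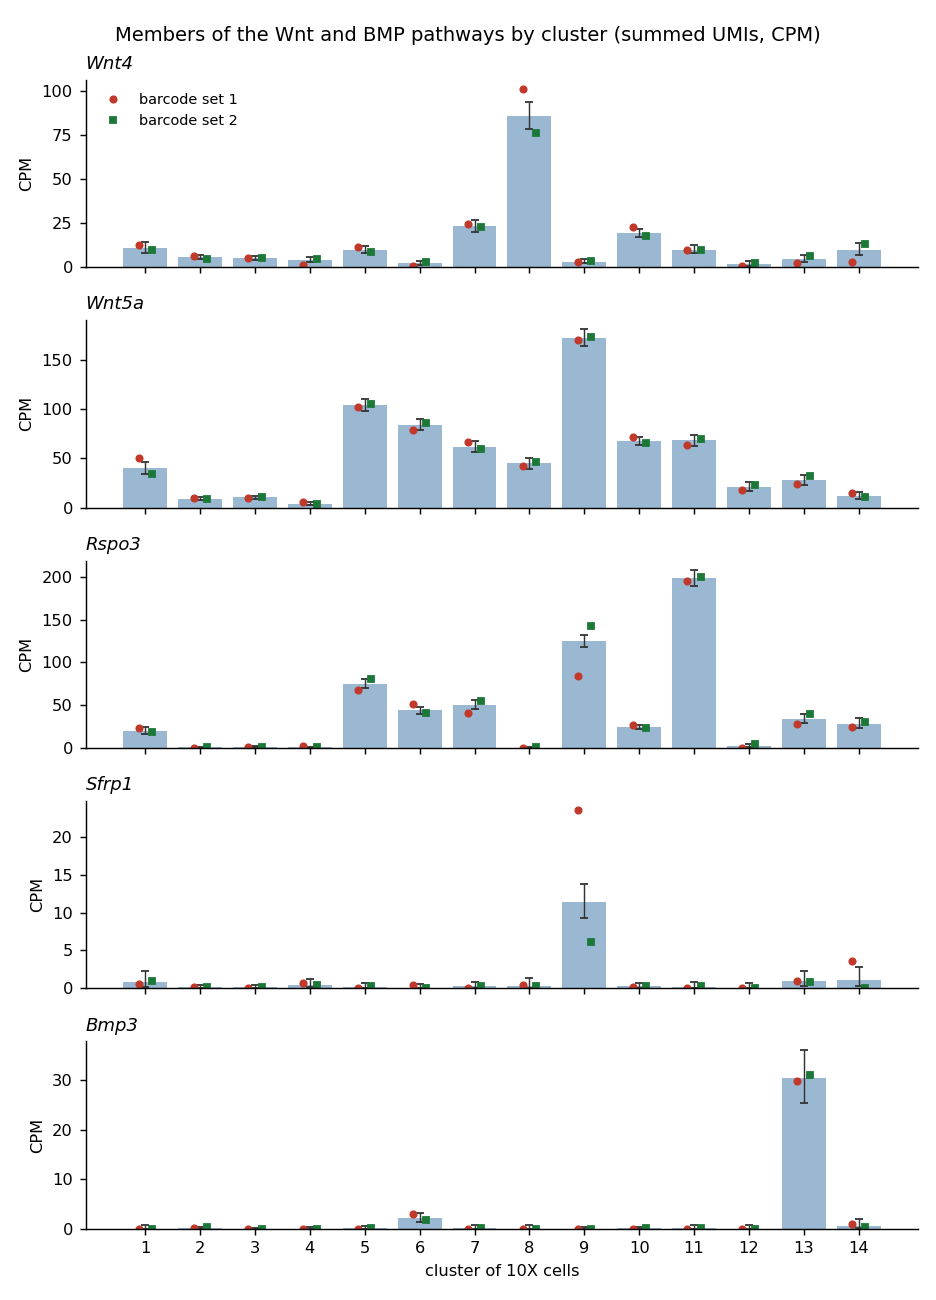
Level of each of the 5 genes (y axis, CPM of summed UMIs, each panel on its own scale) in the 14 clusters of 10X cells (x axis). Bars pool all cells, error bars are exact 95% Poisson intervals, circles are barcode set 1 and squares barcode set 2. Wnt4 peaks in cluster 8, Wnt5a and Sfrp1 in cluster 9, Rspo3 in cluster 11 and Bmp3 in cluster 13, and the sets lie far apart for Sfrp1 in cluster 9, at 23.6 and 6.06 CPM.

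Wnt5a and Rspo3 shared much of their distribution. Over the 14 cluster levels, which share libraries, their correlation was 0.74 (Pearson r of log2(CPM + 1)), against -0.08 for Wnt4 and Rspo3. Both transcripts were found in 731 of the 2350 cells (31.1%), and Rspo3 was found in 51.4% of the cells with Wnt5a and 11.2% of those without. Cells with both made up 86.8% of cluster 11, 81.1% of cluster 9 and 68.2% of cluster 5. With every cell thinned to 20000 UMIs these shares were 60.5%, 62.2% and 45.8%. Rspo3 was then in 57.4% of the cluster 5 cells with Wnt5a and 55.6% of those without. The shares lay further apart in cluster 7, at 54.2% and 34.0%, and in cluster 14, at 66.7% and 25.0%. The pooled shares therefore also reflect how the genes divide over clusters. In cluster 8 a Wnt5a UMI was present in 76 of 86 cells and Rspo3 in 1, so Wnt5a was there almost always without Rspo3. Wnt4 and Wnt5a were found together in 63 of those 86 cells. In clusters 10 and 7, which had both Wnt4 and Rspo3, Rspo3 was in 51.4% of the cluster 10 cells with Wnt4 and 50.0% of those without, and in 54.3% and 55.8% of such cells in cluster 7. Across all members, 613 cells (26.1%) had no UMI of any of the 5, from none of the 148 cells of cluster 9 to 64.1% of cluster 4, and no cell had all 5.

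**Figure D2:**
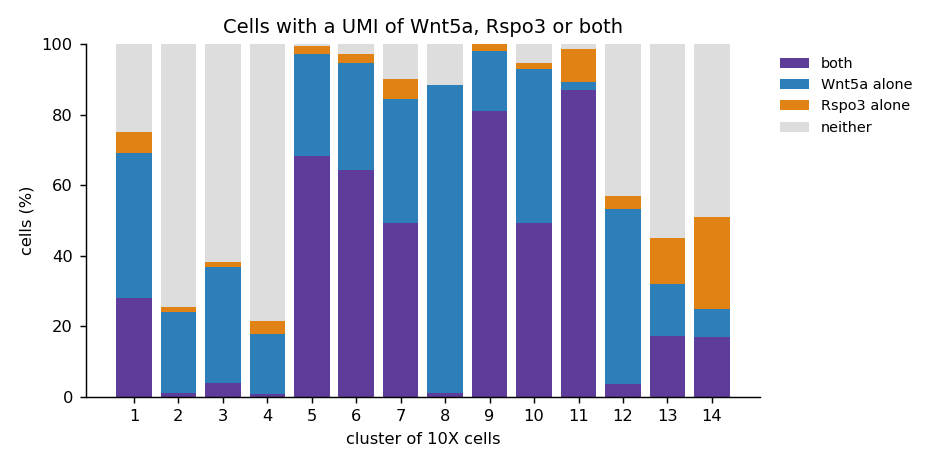
Share of the cells of each 10X cluster (y axis, percent) with a UMI of both Wnt5a and Rspo3, of 1 of them, or of neither, without thinning. Both were found in 86.8% of cluster 11 and 81.1% of cluster 9, and cluster 8 is almost wholly Wnt5a alone.

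Sfrp1 was a rare transcript in the 10X cells, with 140 UMIs in 77 cells (3.28%). Cluster 9 held 73.6% of these UMIs and stood at 11.4 CPM (9.31 to 13.8). Its log2 ratio over the remaining cells was 5.29 (4.73 to 5.87). The next cluster, 14 (Gpr101, Ecel1 and Cxcl14), stood at 1.12 CPM from 4 UMIs, a log2 ratio of 3.35 (1.95 to 5.25). Cluster 12 had no UMI in 109 cells, which allows a share of cells with a UMI of up to 3.33% and sets no limit on cells that express the gene below detection. Within cluster 9 the gene was uneven. A UMI was found in 44 of 148 cells (29.7%), and the 15 highest cells held 62.1% of the cluster's UMIs. The share outside cluster 9 was at most 3.00%, in cluster 1, whose median depth was 45664 UMIs against 61866 in cluster 9. Set 1 had 23.6 CPM in cluster 9 and set 2 had 6.06 CPM, and in both no other cluster came higher.

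The 44 cells of cluster 9 with Sfrp1 were set beside the 104 without. Rspo3 stood at 69.6 CPM with Sfrp1 and 146.8 CPM without, a log2 difference of -1.08 (-1.31 to -0.84), and within the sets at -0.89 and -0.97. Wnt5a was slightly higher in the cells with Sfrp1, at 194.6 against 163.9 CPM, and Wnt4 stood at 3.10 CPM in both. Of the markers of the cluster, Maf, a transcription factor gene, stood at 275.5 against 150.9 CPM and Nos1, which encodes neuronal nitric oxide synthase, at 167.5 against 104.0 CPM. Crh, the corticotropin-releasing hormone gene, stood at 71.6 against 45.3 CPM. Tph2 was close, at 2969 and 3162 CPM, and the median depths were 58272.5 and 64122 UMIs. A list of 4 measured oligodendrocyte genes summed to 9.29 and 8.54 CPM. Sfrp1 was found in 43.8% of the 48 set 1 cells of cluster 9 and 23.0% of the 100 set 2 cells. The levels other than Rspo3 pool the sets, so they also compare the sets in part. All are counts over cells of 1 sample and the intervals leave out differences between mice.

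Bmp3 had 163 UMIs in 69 cells (2.94%), and cluster 13 (Nfib, Nppc and Ldb2) held 82.2% of them. Its level there was 30.4 CPM (25.5 to 36.0). Over the remaining cells this was a log2 ratio of 7.10 (6.51 to 7.73). Cluster 6 came next at 2.08 CPM, from 20 UMIs in 11 of 168 cells, and the log2 ratio of cluster 13 to cluster 6 was 3.87 (3.18 to 4.63). No UMI was found in clusters 1, 3, 4, 8, 9 and 12, which for the 313 cells of cluster 3 allows a share of cells with a UMI of up to 1.17%. The sets stood at 29.7 and 31.0 CPM in cluster 13. Bmp3 was present in 49 of its 144 cells (34.0%), and in 23.9% after thinning, with at most 8 UMIs in a cell. Cluster 13 was the shallowest, with a median of 28627.5 UMIs per cell, while the medians of the others lay between 34715 and 70425.

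Cluster 13 was itself divided along Bmp3. In the 49 cells with Bmp3, Tph2 stood at 135.5 CPM, against 843.0 CPM in the 95 cells without, a log2 difference of -2.64 (-2.87 to -2.41) that was -2.99 in set 1 and -2.50 in set 2. Slc6a4, the serotonin transporter gene, stood at 110.5 against 665.8 CPM, and Slc18a2, which encodes the vesicular monoamine transporter, at 226.7 against 693.5 CPM. Fev was close, at 166 and 186 CPM. Nfib, a transcription factor gene among the cluster's markers, went the other way, at 205.7 against 45.7 CPM, a log2 difference of 2.17. The other markers, Nppc and Ldb2, are not given here, so Nfib does not stand for the markers as a set. Beside Bmp3, Rspo3 stood at 12.9 against 42.3 CPM, Wnt5a at 17.7 against 32.2 CPM and the receptor gene Npy2r at 16.1 against 53.6 CPM. Wnt4 was near the level of a few UMIs on both sides, at 4.84 CPM (6 UMIs) and 4.10 CPM (13 UMIs). The median depth was 25532 UMIs in cells with Bmp3 and 30454 in cells without. The oligodendrocyte genes, of which 4 of 5 are in the table and none was at 0, summed to 33.1 against 16.4 CPM, the 3 ependymal genes, none at 0, to 6.45 against 2.52 CPM, and the astrocyte genes to 1.61 against 3.78 CPM with 2 and 1 of 4 at 0. Oligodendrocyte precursor, microglial and mural genes were all at 0 with Bmp3 and at 0.631 CPM or lower without, and the 4 endothelial genes were at 0 in both. Their part in the difference was not tested.

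For each member, the 3 genes whose levels over the 14 clusters were most like it were taken from 9784 genes that reached 10 CPM in some cluster. Points share libraries and depth, so r is a description, and r over the means of the 8 sorted groups is set beside it. Closest to Wnt5a were Slc35e3 (r = 0.92 in clusters and 0.82 in sorted groups), Bloc1s2 (0.90 and 0.26) and Camkk2, a calcium-dependent kinase gene (0.89 and 0.92). Those of Rspo3 were Zfp462, a zinc finger gene (0.94 and 0.61), Sptssb (0.92 and 0.52) and 4921506M07Rik (0.90, with no variation in sorted groups). For Wnt4 they were Tram1l1 (0.84 and 0.41), Kazn (0.81 and 0.62) and Arntl, a clock gene (0.80 and 0.56). The likeness to Sfrp1 of Pla2g16 (0.86), G2e3 (0.82) and Ell2 (0.80) did not carry over, with 0.21, -0.45 and -0.03 in the sorted groups. Bmp3 was tracked by Gprc5b, Etv1 and Nrgn, each at 0.95, and its sorted cells gave no basis for a second r.

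The wider pathways were surveyed with 11 lists of 144 genes by role, of which 114 are in the 10X table and 75 have at least 100 UMIs. Of these 75, 39 were at least 2-fold higher in their leading cluster than in all other cells, beside 20.8% of all genes tested. Against the next cluster the count was 13 (17.3%), beside 2.99%. Leaving out the 5 members, the counts were 34 and 10 of 70, and the median ratio to all other cells was 1.98, against 1.45 over all genes. Cluster 13 led for 21 of the 75, or 28.0%, near its 26.2% of all genes tested.

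All 6 Wnt ligands, 3 enhancers and 5 secreted Wnt antagonists with enough UMIs, the members included, passed 2-fold over all other cells, beside 20.8% of all genes tested. Besides the members, the ligands included Wnt3 and Wnt16, highest in cluster 6 at 13.5 and 5.93 CPM. In cluster 6, 4 endothelial genes, none at 0, summed to 11.2 CPM, against 2.43 CPM in all cells, and 4 mural and leptomeningeal genes, 1 of them at 0, to 10.2 against 1.62 CPM, and their part in the levels of these ligands, of Id4 or of Bmp3 there was not tested. Rspo1, the other R-spondin gene in the 10X table, was highest in cluster 5 at 28.0 CPM and had no UMI in cluster 13, and Ndp, which encodes norrin, a Frizzled ligand that is not a Wnt, led in cluster 13 at 9.98 CPM. The 5 secreted antagonists were led by clusters 1, 3, 9 or 11. Dkk3 was nearly level in clusters 11 and 9, at 75.7 and 73.0 CPM, the clusters that led for Rspo3, whereas Sostdc1 was highest in cluster 1 (Npas1, Gabrq and Npas3) at 41.4 CPM and at 1.11 CPM in cluster 9. Dkkl1 was highest in cluster 3 at 25.1 CPM.

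Beside 20.8% of all genes tested, 4 of 15 receptors and co-receptors (26.7%) passed 2-fold over all other cells. Of these, Ror2, a Wnt5a receptor gene, was highest in cluster 11 at 8.44 CPM and next in cluster 9 at 4.21 CPM, and had no UMI in clusters 4, 8 and 12. Porcn, whose enzyme acylates Wnts, lay between 8.19 and 14.0 CPM in all clusters. Wls, the gene of the protein that carries Wnts to the membrane, ran from 0.115 CPM in cluster 4, from 1 UMI, to 8.84 CPM in cluster 13, and stood at 1.77 CPM in cluster 9, where Wnt5a led. Of 8 canonical signal genes 1 (12.5%) passed, below the share of all genes. Ctnnb1, the beta-catenin gene, and Gsk3b, a kinase gene of its destruction complex, ran at 110 to 164 CPM and 552 to 720 CPM in all clusters. Of 4 canonical target genes 3 (75.0%) passed. Axin2, a common readout of canonical signalling, was highest in cluster 13 at 7.03 CPM, and so was Ccnd1 at 20.0 CPM. In cluster 13, 4 oligodendrocyte genes, none at 0, summed to 21.1 CPM against 11.4 CPM in all cells, 4 astrocyte genes, 1 at 0, to 3.17 against 1.49 CPM, and 3 ependymal genes, none at 0, to 3.63 against 1.89 CPM. Their part in the levels of the genes that led there, Bmp2 and Nog included, was not tested.

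On the BMP side, 3 of 5 ligands, Bmp3 included, passed 2-fold over all other cells, beside 20.8% of all genes tested. Bmp2 led in cluster 13 with Bmp3, at 5.67 CPM, and Inhba in cluster 14 at 4.48 CPM. Nog, the gene of the BMP antagonist noggin, was also highest in cluster 13 at 8.16 CPM, as was Rgma, a BMP co-receptor gene, at 11.6 CPM. Of 9 receptors 4 (44.4%) passed. Bmpr1a was even, at 21.6 to 31.3 CPM, while Bmpr2 reached 323 CPM and Acvr1c 17.8 CPM in cluster 4. Among antagonists, Fstl5 spanned 0.81 CPM (cluster 12) to 156 CPM (cluster 14) and Nbl1 14.6 CPM (cluster 1) to 304 CPM (cluster 9). Of 7 signal and target genes 2 (28.6%) passed, near the share of all genes. Id4 was lowest in cluster 12, at 88.2 CPM, and highest in cluster 6, at 417 CPM.

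**Figure D3:**
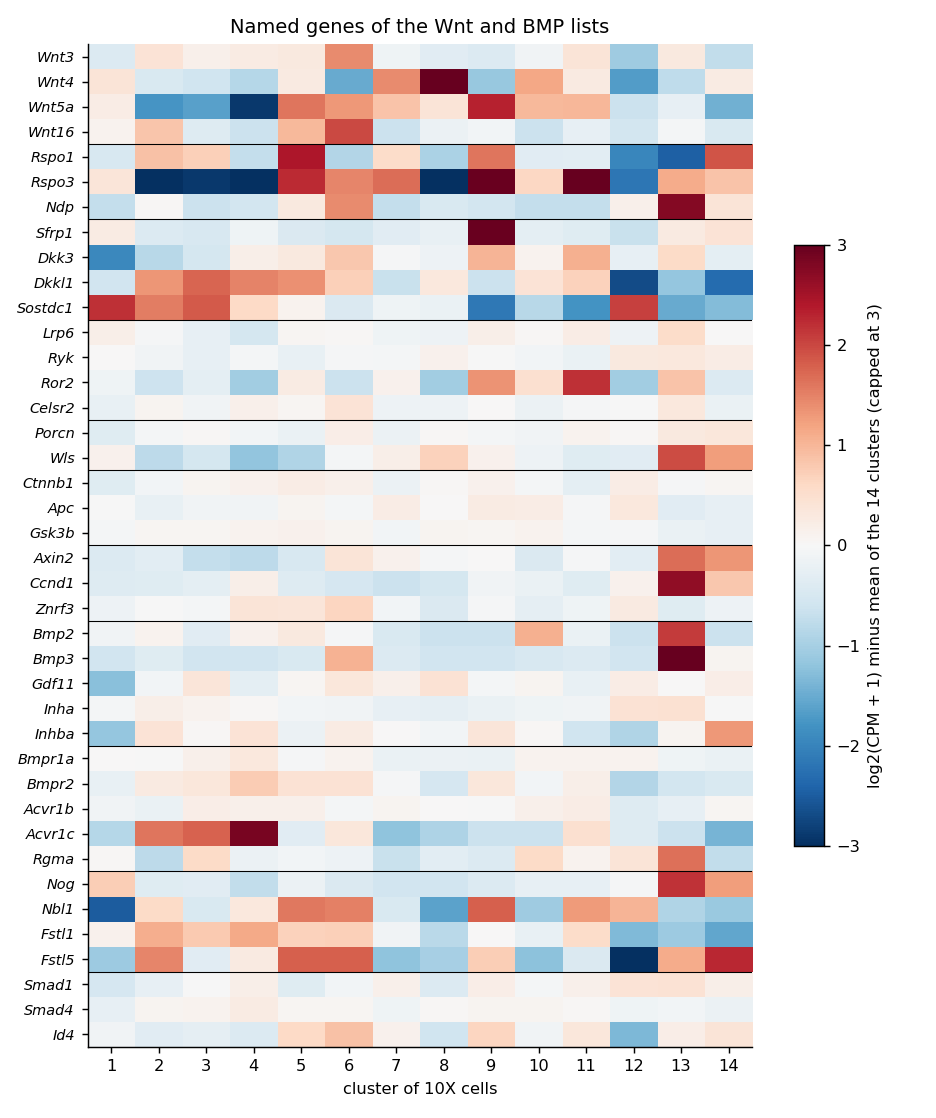
Named genes of the Wnt and BMP lists (y axis, grouped by role, with a line between lists) in the 14 clusters (x axis). Colour is log2(CPM + 1) minus its mean over the clusters, capped at 3. Rspo3 has the widest spread among the Wnt genes, Ctnnb1 and Gsk3b are almost flat, and Ndp, Ccnd1, Axin2, Bmp2, Bmp3 and Nog are highest in cluster 13.

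In the sorted cells, Wnt4, Wnt5a, Rspo3 and Sfrp1 had reads in at least 5 of the 70 cells and Bmp3 did not. For 2 of the 4, Wnt4 and Sfrp1, the highest group mean was at least 2-fold above the next on the CPM + 1 scale, as for 7.37% of the 13483 genes with reads in at least 5 cells. The groups were part of the rule that chose the members, so this is again a description.

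Wnt4 reads were present in all 6 Sert_Pet1_cDR cells, at 2.39 CPM in the lowest, 44.4 CPM at the median and 136 CPM in the highest. The mean was 60.5 CPM (SD 52.1 over cells). The median of 5 summed astrocyte genes, 1 of them at 0, was also highest in this group, at 27.2 CPM with a range of 0 to 201.6 CPM, against at most 3.72 CPM in the others, and their part in the Wnt4 level was not tested. Next were Npy2r_Pet1_cDR, with reads in 3 of 10 cells up to 53.7 CPM, and Sert_Pet1_vmDR, with reads in 3 of 8 cells up to 62.1 CPM. None of the 10 P2ry1_Pet1_cDR cells, dissected from the same caudal region, had a read. Single cells of the groups overlapped, and only the caudal Sert group had Wnt4 in every cell.

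Wnt5a was found in 47 of the 70 cells and in all 8 groups. It was present in all 9 Npy2r_Pet1_rDR cells, at 3.22 CPM in the lowest, 74.8 CPM at the median and 192.4 CPM in the highest. In Sert_Pet1_vmDR 7 of 8 cells had reads, with a median of 53.9 CPM, and in Crh_Pet1_rDR 5 of 8, with a median of 20.7 CPM and a highest cell of 185.9 CPM. The lowest medians were 0 in Sert_Pet1_dlDR, with reads in 4 of 10 cells, 0 in Sert_Pet1_dmDR, with reads in 4 of 9, and 0.161 CPM in P2ry1_Pet1_cDR, with reads in 5 of 10. At day 63 and day 90 the mean was 18.2 and 0.174 CPM in Sert_Pet1_dlDR, 39.3 and 0.880 CPM in Sert_Pet1_dmDR, and 40.2 and 44.0 CPM in Sert_Pet1_vmDR. The day 63 means of the dorsal groups rested on few cells, 59.4 and 30.8 CPM in dlDR cells assigned to clusters 6 and 1, and 114.9 and 103.4 CPM in dmDR cells assigned to cluster 11. All 8 dorsal cells of day 90 were assigned to cluster 2 or 3. Some dorsal cells of day 63 were too, and cells of both ages were low there, with at most 17.7 CPM, in a dmDR cell of day 63. The part of age in the means was not tested. Ranges overlapped between all groups.

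Rspo3 was all or none in these cells, since each of the 21 cells with reads held over 10 CPM. It was present in 6 of 8 Sert_Pet1_vmDR cells, with a median of 51.7 CPM and a highest cell of 109.9 CPM, and in 6 of 9 Npy2r_Pet1_rDR cells, with a median of 27.2 CPM and a highest cell of 90.7 CPM. Neither the 6 Sert_Pet1_cDR nor the 10 P2ry1_Pet1_cDR cells had a read, while 4 of 10 Npy2r_Pet1_cDR cells did, up to 58.5 CPM. Only 1 of 10 Sert_Pet1_dlDR cells had Rspo3, at 24.6 CPM. Of the 21 cells with Rspo3, 19 also had at least 10 CPM of Wnt5a, out of 33 cells with that much Wnt5a. By age, Rspo3 was in 2 of 4 Sert_Pet1_vmDR cells at day 63 and 4 of 4 at day 90. In Sert_Pet1_dmDR it was in 2 of 6 cells at day 63, both assigned to cluster 11, and in 0 of 3 at day 90.

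Sfrp1 followed the driver line. In Npy2r_Pet1_cDR 9 of 10 cells had reads, with a lowest cell of 0, a median of 71.0 CPM and a highest cell of 162.6 CPM. In Npy2r_Pet1_rDR 5 of 9 cells had reads, with a median of 0.556 CPM and a highest cell of 174.9 CPM. Outside the Npy2r line only 1 of 51 cells had any, a Crh_Pet1_rDR cell at 8.14 CPM, and the 33 Sert and 10 P2ry1 cells had none. Per kilobase of exon, mean Sfrp1 in Npy2r_Pet1_cDR was 16.6 CPM, above Rspo3 at 4.33, Wnt5a at 4.02 and Wnt4 at 2.88. At least 10 CPM of Sfrp1 was found in 13 of 19 Npy2r cells and 0 of 51 others, and of the 24256 genes no other had such counts, although these limits were set from Sfrp1 itself. With at least 10 of 19 and at most 5 of 51 cells, Cd24a joined it. Both ages of the line carried Sfrp1, with means of 100.7 CPM at day 77 and 54.0 CPM at day 87 in Npy2r_Pet1_cDR and of 77.1 and 14.0 CPM in Npy2r_Pet1_rDR. No other group was sampled at day 77 or 87, so line and age cannot be told apart on the same days. At the nearest days, both P2ry1 cells of day 74 and all 12 Sert cells of day 90 had none, and the Crh cell with reads was 1 of 2 sampled at day 83. Summed astrocyte genes lay between 0 and 75.3 CPM in Npy2r cells and between 0 and 201.6 CPM in the others, and oligodendrocyte genes between 0 and 69.2 CPM and between 0 and 85.8 CPM. By group, the median of the 5 oligodendrocyte genes was 23.4 CPM in Npy2r_Pet1_rDR, with 2 of them at 0 throughout, against 0.487 CPM in Npy2r_Pet1_cDR and at most 3.14 CPM in the other groups. Their part in the Sfrp1 and Wnt5a levels of Npy2r_Pet1_rDR was not tested. Sorted cells were sequenced on either of several instruments, and which cells went on which is not given here. Line and instrument therefore cannot be told apart either.

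Bmp3 was nearly absent from the sorted cells. It had 0.292 CPM in 1 Sert_Pet1_cDR cell and no reads in the other 69.

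**Figure D4:**
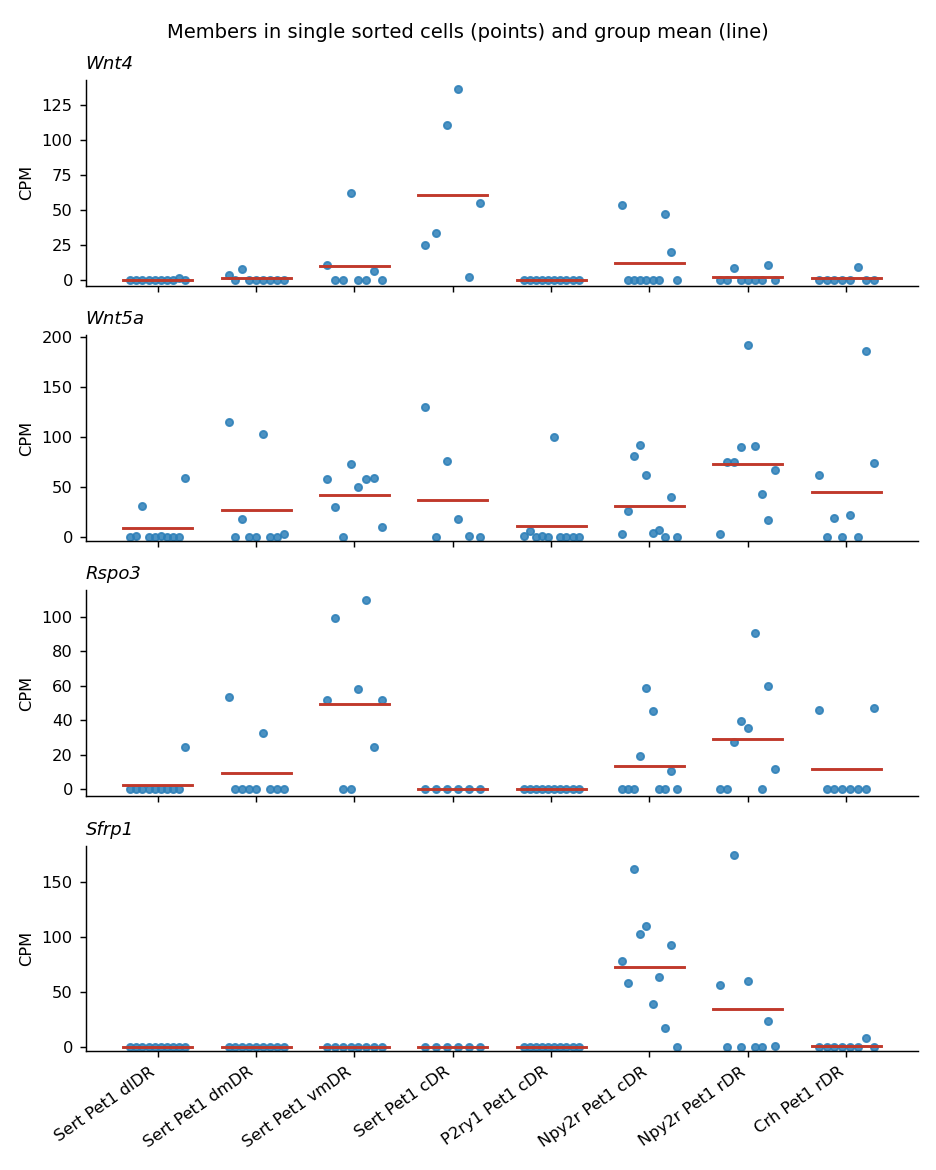
Level of 4 of the genes (y axis, CPM of reads, each panel on its own scale) in the 70 sorted cells by group (x axis). Points are cells and lines are group means. Wnt4 stands out in Sert Pet1 cDR and Sfrp1 in both Npy2r Pet1 groups, and Rspo3 is 0 in all Sert Pet1 cDR and P2ry1 Pet1 cDR cells. Bmp3, with reads in 1 cell, is not drawn.

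To set the tables side by side, each sorted cell was assigned to the 10X cluster it most resembled, with the 5 genes left out of the comparison. Assignment scores were as low as 0.296, with a median of 0.615, and no cell was assigned to cluster 9 or 14. In the authors' own assignment, some Sert_Pet1_dmDR and Crh_Pet1_rDR cells fell in cluster 9. Most Sert_Pet1_vmDR cells fell in cluster 10 there, and a few Npy2r_Pet1_cDR cells in clusters 10 and 14. Here 2 Sert_Pet1_dmDR cells fell in cluster 11, and 3 Sert_Pet1_vmDR and all 10 Npy2r_Pet1_cDR cells in cluster 7. Levels by assigned cluster rest on the assignment made here. Rspo3 was in all 3 cells assigned to cluster 11, at 32.8 to 53.5 CPM, in both cells of cluster 5 and in both of cluster 13, at 90.7 and 109.9 CPM. It was also in 2 of 3 cells assigned to cluster 10, 8 of 18 assigned to cluster 7 and 4 of 6 assigned to cluster 6. The order was not that of the 10X cells, with means of 52.6 CPM for cluster 10 and 44.5 CPM for cluster 11. In the 10X cells these clusters stood at 24.1 and 198.6 CPM. The 36 cells assigned to clusters 1, 2, 3, 4, 8 and 12 had none. The 2 cells assigned to cluster 13 did not carry its low Tph2, since they stood at 5592 and 8602 CPM of Tph2 and had no Bmp3, whereas the 10X cells of cluster 13 stood at 644 CPM of Tph2 and the other clusters at 1445 to 3759 CPM. Their Rspo3 is therefore not set against that of the 10X cluster. The 2 sorted cells of cluster 1 had no Rspo3 where the 10X cells stood at 19.9 CPM. Wnt4 was in all 3 cells assigned to cluster 8, at 25.3, 55.1 and 136 CPM, in 9 of 18 assigned to cluster 7, with a mean of 16.3 CPM, and in none of 10 assigned to cluster 12. Elsewhere the order was not that of the 10X cells, with no Wnt4 reads in the 3 cells assigned to cluster 10, where the 10X cells stood at 19.1 CPM, and with 0.317 and 62.1 CPM in the 2 cells assigned to cluster 1. A Sert_Pet1_cDR cell assigned to cluster 7 stood at 110.7 CPM, inside the range of the cluster 8 cells. Wnt5a was in all 6 cells assigned to cluster 6, at 16.6 to 89.8 CPM, and in 3 of 10 assigned to cluster 2.

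Sfrp1 did not have the same order in the tables. Of the 18 sorted cells assigned to cluster 7, 11 were from the Npy2r line, and 10 of these had at least 10 CPM. Of the other 7 only the Crh_Pet1_rDR cell had reads, at 8.14 CPM. In the 10X cells cluster 7 held 2 Sfrp1 UMIs in 122 cells, 0.251 CPM (0.0303 to 0.905). It was also the cluster with the most Npy2r, at 67.5 CPM with a UMI in 108 cells, and among those 108 cells 2 had Sfrp1. Cluster 9, where 10X cells had Sfrp1, stood at 6.54 CPM for Npy2r, and of its 37 cells with Npy2r 9 had Sfrp1. In the sorted Npy2r cells Npy2r itself had a median of 4.98 CPM and a highest cell of 150.4 CPM in Npy2r_Pet1_cDR and a median of 1.97 CPM and a highest cell of 9.40 CPM in Npy2r_Pet1_rDR. In Sert_Pet1_cDR, which had no Sfrp1, the median of Npy2r was 38.7 CPM and the highest cell 126.2 CPM. What separates the tables in this gene, the assignment of the sorted cells included, was not tested.

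**Figure D5:**
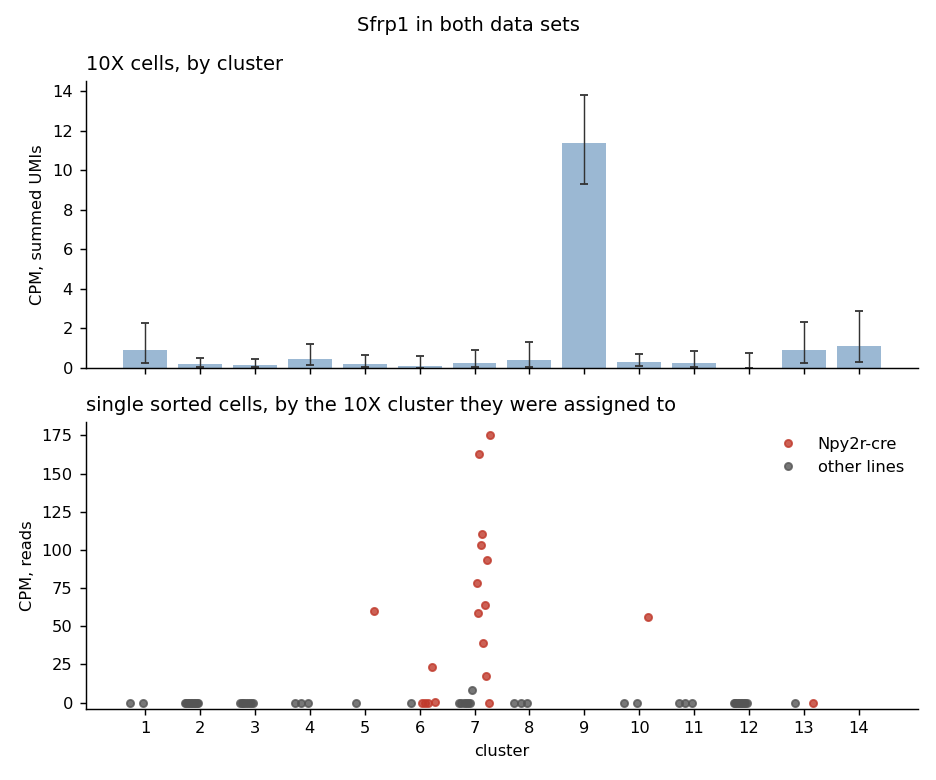
Sfrp1 in the 14 clusters of 10X cells (upper panel, CPM of summed UMIs, error bars the exact 95% Poisson interval) and in single sorted cells by the cluster each was assigned to (lower panel, CPM of reads). Red points are Npy2r-cre cells and grey points all others. The 10X cells have a single peak in cluster 9, at 11.4 CPM, and the sorted cells have Sfrp1 mainly in Npy2r-cre cells assigned to cluster 7.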

How the data were processed

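The authors mapped 10X reads to mm10 with Cell Ranger 3.0.2 and deposited the UMI counts of each gene in each cell, not normalized. Before deposit, in R 3.5.3, the authors removed rarely detected genes, and left out cells that had little Fev, few genes, many glial or mitochondrial genes, few ribosomal genes or extreme totals. Reads of sorted cells (SMART-Seq v4) were mapped by the authors with STAR 2.5.4 and deposited as read counts per gene, without normalization or filtering. The authors sequenced these libraries on either a HiSeq (single-end reads) or a NextSeq (paired-end reads). Filtering on glial genes and Fev limits what the 10X cells can show of other cell types.

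From these counts, 10X cells were clustered in Seurat 5.3.0 with R 4.3.3 (2000 variable genes by vst, components 1 to 5 and 8 to 50, 20 neighbours, Louvain at 0.9) and numbered by the marker genes of the study's clusters, each of the 14 scoring highest for its own number. Sorted cells were assigned by projected PCA over 30 dimensions, with 1902 genes. CPM values came from Python 3.11.15, with pandas 2.3.3, scipy 1.17.1 and numpy 2.4.6, as did exact Poisson and Clopper-Pearson intervals and conditional binomial intervals of ratios. Against a level of 0 UMIs, 3 counts were the floor. Thinning to 20000 UMIs left out 53 cells. Scrublet in scanpy 1.11.5 called 14 doublets, which were kept except in an alternative. The script for ratios between clusters was tested on simulated data.

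The members and pathway lists were chosen with earlier results of these data known. A pathway gene was named if it had at least 100 UMIs and stood 2-fold above the next cluster, or was among the 3 with most UMIs of its list. Cd24a and Npy2r, and the marker genes compared within clusters 9 and 13, were chosen after their values were seen. Coordinates are from GENCODE M21. Alternatives covered the clustering genes, components, resolution, PCA, depth, doublets, barcode sets and the weight of cells, and for sorted cells the pseudocount, edgeR 4.0.16 and DESeq2 1.42.0 scaling, low or highest cells, age and the median. Neither edgeR nor DESeq2 was used for a test, since no group has named animals.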

Additional observations from a re-analysis of the deposited data

Results flagged for a closer look

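In each sorted group, the gap between the highest or lowest cell and its nearest neighbour was set against the group's whole range on the log2(CPM + 1) scale with Dixon's 95% limits, over 25 combinations of gene and group. The limits are set to pick out about 1 in 20 groups of normally distributed values. Many cells here are at 0, and a lone cell with reads always stands apart, so that rate does not apply. Cells of a group are not replicates. In 8 combinations a cell stood apart, and in 4 of them all other cells of the group were at 0. The highest cell held 9.18 CPM of Wnt4 in Crh_Pet1_rDR with all others at 0, and 1.30 CPM of Wnt4 in Sert_Pet1_dlDR with the next at 0.317 CPM. It held 8.14 CPM of Sfrp1 in Crh_Pet1_rDR and 0.292 CPM of Bmp3 in Sert_Pet1_cDR, again with all others at 0. Rspo3 stood at 24.6 CPM in 1 Sert_Pet1_dlDR cell and 0 in the other 9, and this cell, the group's only one assigned to cluster 6, also had the group's highest Wnt5a, 59.4 CPM. Wnt5a stood at 99.9 CPM in 1 P2ry1_Pet1_cDR cell, with the next at 5.67 CPM. In the other direction, 1 Sert_Pet1_vmDR cell had 0 CPM of Wnt5a with the next at 9.50 CPM, and 1 Npy2r_Pet1_cDR cell had 0 CPM of Sfrp1 with the next at 17.3 CPM.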

How the results depend on the processing

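No direction reversed, and in every alternative run each member was highest in the cluster that matched its main one. No paired analysis was possible because the numbers of sorted cells do not pair cells and no test was made. Of 45 log2 ratios to all other cells 33 stayed within their interval, and of 45 to the next cluster 36 did. Wnt4 to all other cells moved to 2.41 with pathway genes left out, 2.45 with components 6 and 7 kept and 2.36 at resolution 0.7, all of which merge cluster 8 with cluster 10 cells, and to the next cluster to 0.76, 1.07 and 0.90. Thinning gave 3.66 and 2.26 for Wnt4 and 6.21 and 3.03 for Bmp3, to all others and to the next. In set 1 alone the ratio to all others was 3.57 for Wnt4, 2.16 for Wnt5a, 3.13 for Rspo3 and 6.24 for Sfrp1, and in set 2 alone 3.16 for Wnt4, 2.66 for Rspo3 and 4.43 for Sfrp1. Rspo3 to the next cluster was 1.22 in set 1 and 0.48 in set 2. At resolution 0.7, Wnt5a to the next cluster was 0.85 and Bmp3 4.93. In sorted cells the log2 ratio of the highest group to the other cells ranged from 2.36 to 3.97 for Wnt4, 0.87 to 1.57 for Wnt5a, 1.59 to 2.53 for Rspo3 and 2.43 to 3.99 for Sfrp1 over the alternatives that kept the mean, lowest at a pseudocount of 10 for all but Wnt5a, and the spread between single cells is too wide to judge these moves. With the median in place of the mean it went from 3.69 to 5.50 for Wnt4, from 1.37 to 4.38 for Wnt5a, from 2.23 to 5.72 for Rspo3 and from 3.53 to 6.17 for Sfrp1. The 4 values by assigned cluster held when the members were used for the assignment. Of 75 pathway genes 39 were 2-fold over all other cells and 13 over the next cluster. With at least 500 UMIs these were 16 and 3 of 47 (34.0% and 6.38%, beside 12.7% and 1.41% of all genes so limited), with at least 20 UMIs 57 and 17 of 95 (60.0% and 17.9%, beside 31.5% and 5.25%), and at 3-fold 23 and 4 of 75 (30.7% and 5.33%, beside 8.70% and 1.15%). The causes were not tested, beyond the smaller number of genes under a stricter limit. Depth limits Sfrp1 and Bmp3, with 140 and 163 UMIs in all, and 6 to 10 cells limit each sorted group.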
